A study of Homo sapiens with 32 samples.

Results

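RNA levels of a panel of neuroendocrine and secretory granule genes were followed in 2 human lung cancer lines given an inhibitor of Notch cleavage. The panel lists 9 genes: CHGA, CHGB, SCG2, SCG5, NEUROD1, INSM1, SYP, NPTX1 and UCHL1. A probe set, the group of array probes that reports on a gene, belonged to the panel when its platform annotation gave exactly that symbol and no other. This rule found 8 of the 9 genes with 10 probe sets, among 19775 genes tested and 41091 probe sets with 1 gene symbol. INSM1 and UCHL1 have 2 probe sets each and the other 6 genes have 1. NEUROD1 is not analysed here. A549 is a line from a lung adenocarcinoma and H460a, as the labels spell it, is a line from a large cell carcinoma. Each line received vehicle or RO4929097 at 2 µM, and RNA was taken after 6 or 24 h, which gives 8 groups of 4 arrays and 32 arrays in all. RO4929097 is a gamma-secretase inhibitor, called GSI here. Gamma-secretase is the protease complex that releases the intracellular part of activated Notch receptors and also cuts other membrane proteins. Neither line carries an engineered allele in the labels, and a line stands for 1 tumour. The labels do not state that replicates are independent cultures, and the p-values then cover array-to-array spread that may be technical only.

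Pulmonary neuroendocrine cells store amine and peptide hormones in dense-core granules. Their granins (CHGA, CHGB, SCG2) help to form the granules, and the transcription factor INSM1 drives the program that makes them. In lung development Notch signalling acts through HES and HEY repressors to hold back proneural factors, and loss of Notch signalling enlarges the neuroendocrine population. The comparison of GSI with vehicle therefore asks whether an inhibitor that acts on Notch raised these genes in these carcinoma lines.

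The promoters of CHGA, SCG5, SYP and UCHL1 are shown because the HES and HEY repressors bind the short sequences called N boxes (CACNAG) and class C sites (CACGNG), and CHGA is a textbook gene with a cyclic AMP response element (CRE, TGACGTCA). Promoter sequences of these 4 of the 8 genes were found in the RefSeq table (build GRCh38.p14). Each run holds the 150 bases just before the gene's first base, 5′ to 3′ on the gene's strand, and capitals mark motif matches on either strand. CHGA lies at chr14:92923000-92923149 (plus strand), SCG5 at chr15:32641560-32641709 (plus), SYP at chrX:49200194-49200343 (minus) and UCHL1 at chr4:41256778-41256927 (plus).
CHGA promoter: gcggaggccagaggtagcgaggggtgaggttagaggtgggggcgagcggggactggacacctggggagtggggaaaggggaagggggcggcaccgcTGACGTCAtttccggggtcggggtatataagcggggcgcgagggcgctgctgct
SCG5 promoter: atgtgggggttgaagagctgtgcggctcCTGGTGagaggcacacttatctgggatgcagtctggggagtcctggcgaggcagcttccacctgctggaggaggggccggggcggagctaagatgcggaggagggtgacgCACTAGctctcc
SYP promoter: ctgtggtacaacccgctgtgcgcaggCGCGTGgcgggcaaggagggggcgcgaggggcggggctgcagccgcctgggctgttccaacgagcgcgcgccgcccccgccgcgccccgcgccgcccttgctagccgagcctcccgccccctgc
UCHL1 promoter: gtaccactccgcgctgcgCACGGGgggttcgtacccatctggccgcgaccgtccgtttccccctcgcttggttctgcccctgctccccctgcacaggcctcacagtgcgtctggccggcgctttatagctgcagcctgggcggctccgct
The capitals are a CRE in CHGA, 2 N boxes in SCG5, and a class C site each in SYP and UCHL1. Counted in bases before the start site, the CRE begins at -54, the N boxes of SCG5 at -122 and -12, and the class C sites at -124 in SYP and -132 in UCHL1. In windows of 250 bases before the start, an N box occurred in 32.04% of 35116 promoters, a class C site in 26.7% and the CRE in 1.65%. CHGA, SYP and UCHL1 also hold 1 N box each within that wider window, at -165, -225 and -201. These motifs overlap no other motif searched, and CACGTG, a word that both a class C search and an E-box search would find, is absent from all 4 windows. A match describes letters and not a bound site.

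The deposited values are linear intensities, log2-transformed here, and a level below means log2 intensity of the probe set with the highest mean of its gene. A level depends on the probes, so levels are compared between arrays and not between genes. The mean intensity of an array was 468 to 496 in the 4 A549 vehicle arrays at 6 h, 496 to 531 in A549 GSI replicates 1 and 2 at 6 h, and 583 to 589 in replicates 3 and 4. The other 24 arrays had mean intensities of 570 to 613. In 1 array, H460a vehicle 6 h replicate 3, the beta-actin signal near the 3′ end exceeded that near the 5′ end by 2.19 (log2). This measure of RNA quality was 0.14 to 0.42 in the remaining 31 arrays. This array and A549 GSI replicates 3 and 4 at 6 h are called the 3 arrays that stand apart. Replicates 3 and 4 do so only from the rest of the A549 arrays at 6 h. Their mean intensities lie within the range of the other 24 arrays. Dropping these 3 arrays keeps the A549 arrays at 6 h that have the lower mean intensities. The epithelial keratin KRT18 read 14.7 in A549 and 13.8 in H460a. EPCAM was low in A549 (5.60) and CDH1 in H460a (4.57). As a yardstick of background, 28 genes of other tissues, such as lens and heart, had a median level of 6.68 and a 90th percentile of 7.27. The 5 measured leukocyte markers read from 5.27 (PTPRC) to 8.80 (CD14) in A549 and from 5.20 to 8.63 for the same genes in H460a. The 4 endothelial markers read from 4.91 (CDH5) to 7.61 (PECAM1) in A549 and from 4.89 (CDH5) to 8.58 (KDR) in H460a. The 6 fibroblast markers read from 5.06 (LUM) to 9.26 (COL1A1) in A549 and from 5.40 to 9.18 for the same genes in H460a. Each of these lists thus had a gene above the yardstick in both lines, and their part in the results was not tested. Signals of different probe sets are not equal per molecule, so a level under this yardstick does not show absence. With 4 arrays a group, a difference had a standard error of 0.087 for the median gene.

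Some panel genes read above the yardstick in each line, as did some leukocyte and fibroblast markers, so these levels define no granule profile. CHGB read 9.08 to 11.24 over the 16 A549 arrays and 4.59 to 5.49 over the 16 H460a arrays. SCG2 ran the other way, at 5.99 to 7.06 in A549 and 7.58 to 8.57 in H460a. NPTX1, a neuronal pentraxin secreted at synapses, was above the yardstick in all 16 A549 arrays and in 10 of 16 H460a arrays. UCHL1, the ubiquitin hydrolase also known as PGP9.5, was far above it in all 32 arrays, from 13.45 to 14.24. INSM1 stayed between 3.90 and 4.29 and SCG5 between 4.85 and 5.83, below the yardstick in every array. CHGA was above it in 16 of 16 H460a arrays and 2 of 16 A549 arrays, and SYP, a membrane protein of synaptic vesicles, lay near it throughout, from 6.96 to 7.43.

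**Figure D1:**
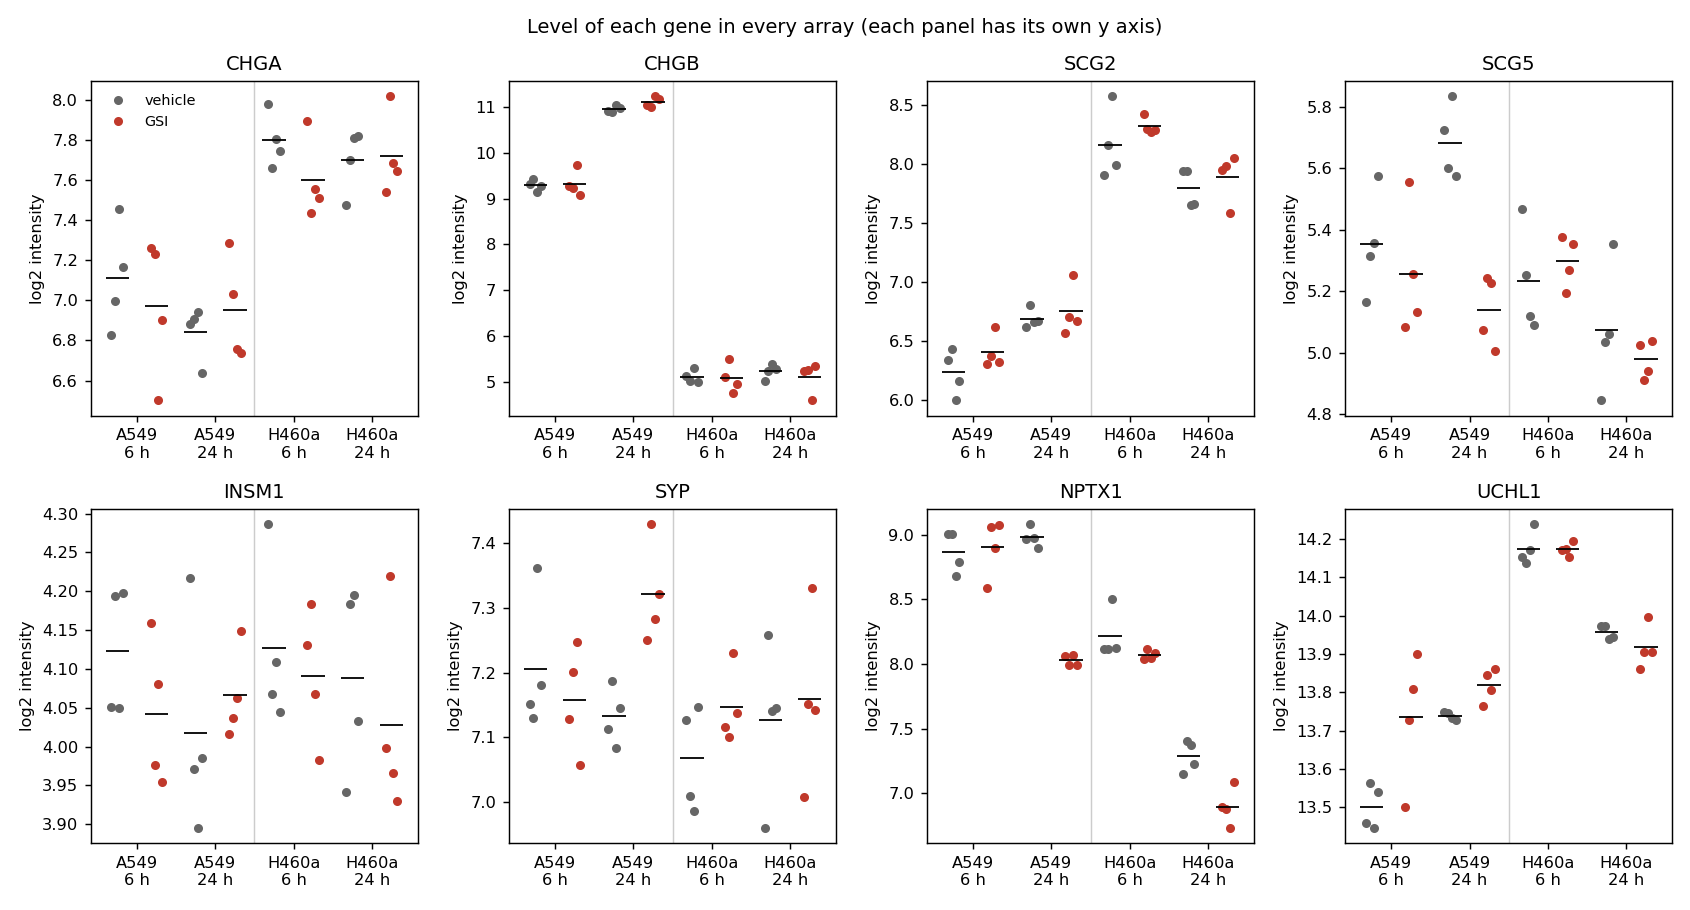
Log2 intensity of the 8 measured genes in every array, 4 arrays for each line, time and treatment, with a bar at each group mean and a separate y axis for each gene. NPTX1 in A549 at 24 h shows 4 GSI arrays between 7.99 and 8.07, all below the vehicle arrays at 8.90 to 9.08, and CHGB separates the lines and, within A549, the times.

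No rise of the panel with GSI was found in these arrays. Across the 4 comparisons of GSI with vehicle, 1 call out of the 8 genes was higher, UCHL1 in A549 at 6 h, and that call changed direction with the scaling of the arrays. In A549 at 24 h the genes that passed the test were both lower with GSI: NPTX1 and SCG5. In H460a 0 of 8 genes passed at either time. The test was limma's moderated test on all 19775 genes with Benjamini-Hochberg adjustment, and a call is an adjusted p under 0.05. All differences are GSI minus vehicle on the log2 scale, ± the standard error, with n = 4 arrays a group.

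In A549 at 6 h 1 of 8 genes was called higher and 0 lower, where 11.6% of all genes were called higher and 1.51% lower. The 2600 genes behind these shares became 557 or 442 when arrays were quantile-normalized (all together or line by line). They became 22 when the 3 arrays that stand apart were dropped, 29 when only these 8 arrays were fitted and 167 to 3834 without 1 array. In A549 at 24 h 0 of 8 were called higher and 2 lower, where the shares over all genes were 1.32% and 0.885%. In H460a 0 of 8 were called at 6 h, where 0.0961% of all genes were, and 0 of 8 at 24 h, where 0.00506% were. At an unadjusted p under 0.05, 1 of the 8 genes passed in A549 at 6 h, 3 at 24 h, 0 in H460a at 6 h and 1 at 24 h, and the shares of all genes were 27.9%, 11.6%, 11.1% and 5.79%. The median difference of the 8 genes was -0.0067 in A549 at 6 h, 0.071 at 24 h, -0.018 in H460a at 6 h and -0.050 at 24 h, and that of all genes was 0.021, 0.0070, 0.0020 and -0.0046. With a single line per tumour type and few called genes in H460a, these shares say little about the 8 genes as a set.

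**Figure D2:**
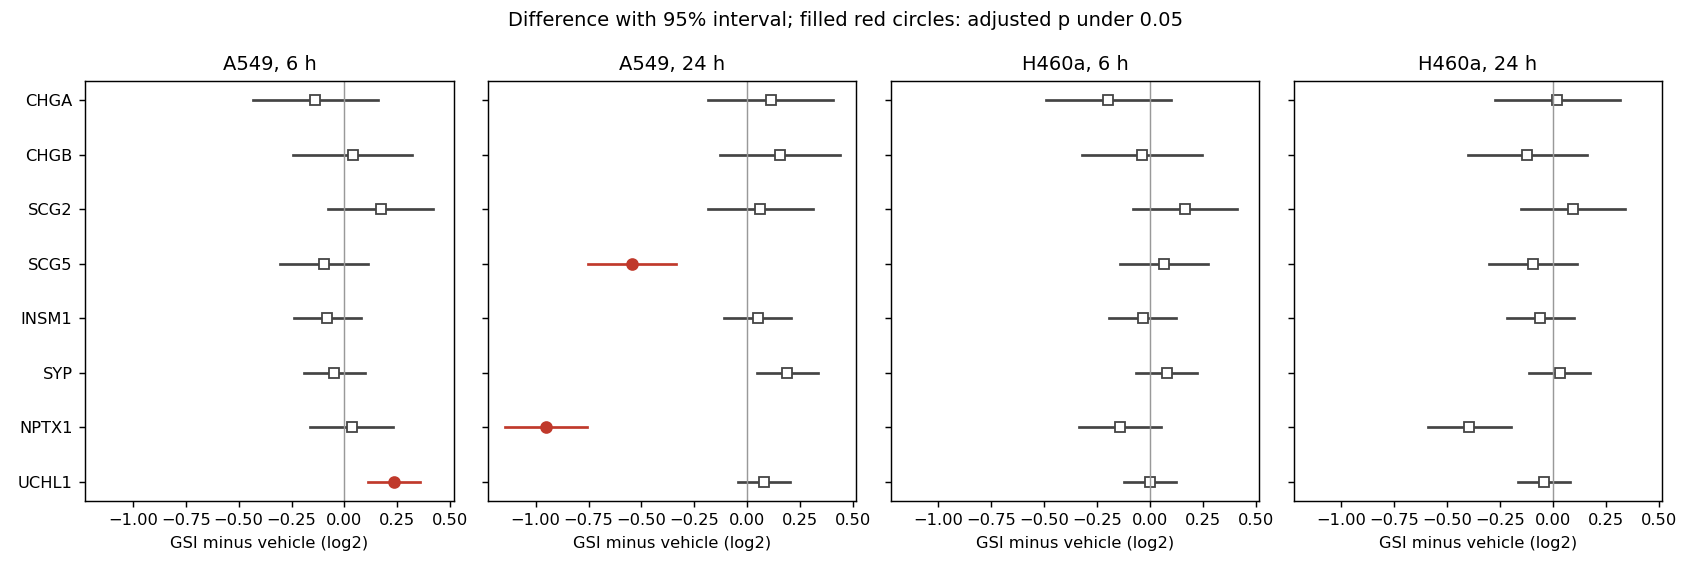
Difference in log2 intensity, GSI minus vehicle, for the 8 genes in each line and time, with 95% confidence intervals from limma. Filled red circles passed the test: UCHL1 at 0.23 in A549 at 6 h, and NPTX1 at -0.95 and SCG5 at -0.55 in A549 at 24 h; open squares did not.

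NPTX1 had the largest difference of the panel. In A549 at 24 h its vehicle arrays read 8.97, 9.08, 8.98 and 8.90 and its GSI arrays 8.06, 7.997, 8.07 and 7.99. All 4 GSI arrays lay below all 4 vehicle arrays, as for 5.14% of all genes, and the spread within each group was small against the gap. NPTX1 fell by 0.95 ± 0.096, a 1.93-fold lower intensity (adjusted p = 6.27e-08), and it passed under each of the 18 other settings and left-out arrays. At 6 h in the same line the groups overlapped, with vehicle arrays at 9.00, 9.00, 8.68 and 8.79 and GSI arrays at 8.59, 9.06, 8.90 and 9.08 (difference 0.034 ± 0.096, adjusted p = 0.863).

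In H460a at 24 h the NPTX1 vehicle arrays read 7.15, 7.41, 7.38 and 7.23 and the GSI arrays 6.89, 6.88, 6.73 and 7.09. The groups did not overlap, with GSI lower, as for 1.56% of all genes in that comparison. The difference of -0.39 ± 0.096 did not pass after adjustment over all genes (adjusted p = 0.296). At 6 h in H460a the vehicle arrays read 8.12, 8.11, 8.50 and 8.13 and the GSI arrays 8.04, 8.12, 8.05 and 8.09 (difference -0.14 ± 0.096, adjusted p = 0.599). The single high array there, replicate 3 at 8.50, is the one with the high beta-actin ratio, and the difference was -0.046 without it.

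SCG5 encodes 7B2, a granule protein that assists the prohormone convertase PCSK2. In A549 at 24 h its vehicle arrays read 5.72, 5.60, 5.83 and 5.58 and its GSI arrays 5.08, 5.24, 5.23 and 5.01. The groups did not overlap, with GSI lower, as for 5.14% of all genes, and SCG5 fell by 0.55 ± 0.10 (adjusted p = 0.00122). All 8 left-out-array fits kept the call, with adjusted p of at most 0.0103. Every one of these levels is under the background yardstick of 7.27, and SCG5 drops out when only genes above the median level are tested. In A549 at 6 h SCG5 differed by -0.096 ± 0.10 (adjusted p = 0.593), in H460a at 6 h by 0.066 ± 0.10 (adjusted p = 0.864) and in H460a at 24 h by -0.096 ± 0.10 (adjusted p near 1). In each of these 3 comparisons the arrays overlapped.

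The granins did not pass in any GSI comparison. CHGA is the standard serum and tissue marker of neuroendocrine tumours. Its A549 arrays at 24 h read 6.88, 6.91, 6.94 and 6.64 with vehicle and 7.28, 7.03, 6.76 and 6.74 with GSI, groups that overlapped (difference 0.11 ± 0.15, adjusted p = 0.857). CHGB, its partner in the granule core, read 10.93, 10.90, 11.05 and 10.98 with vehicle and 11.06, 11.002, 11.24 and 11.17 with GSI in that comparison, again overlapping (0.15 ± 0.14, adjusted p = 0.757). SCG2, the precursor of secretoneurin, was 6.62 to 6.80 with vehicle and 6.57 to 7.06 with GSI (0.062 ± 0.12, adjusted p = 0.915). In the other 3 comparisons the differences ranged from -0.20 to 0.022 for CHGA, -0.12 to 0.039 for CHGB and 0.095 to 0.17 for SCG2.

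A p that misses the threshold does not show that a gene stayed level, so the intervals give what these arrays allow. The highest upper 95% bound over both times was 0.41 for CHGA, 0.44 for CHGB and 0.42 for SCG2 in A549, and 0.32, 0.24 and 0.41 in H460a. Where the signal is above the yardstick, these allow rises of up to 1.35-fold for CHGB in A549, and 1.25-fold for CHGA and 1.33-fold for SCG2 in H460a. CHGB in H460a and SCG2 in A549 were above it in 0 of 16 arrays each and CHGA in A549 in 2 of 16, so their bounds limit the signal and not the RNA. These bounds are for each comparison alone.

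INSM1, the zinc finger factor of neuroendocrine differentiation, lay between 3.90 and 4.29 in all 32 arrays. Its differences with GSI were -0.081, 0.049, -0.035 and -0.060 in A549 at 6 and 24 h and H460a at 6 and 24 h, each ± 0.077. Its second probe set, also at a low level, gave -0.073, -0.055, -0.086 and -0.063. Neither probe set passed in any of the 4 comparisons, and the groups overlapped for the first in all 4. The highest upper 95% bound for INSM1 was 0.21 in A549 and 0.12 in H460a. INSM1 was below the yardstick in every array, so these bounds limit the signal and not the RNA.

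SYP showed a small separation in a single comparison. In A549 at 24 h its vehicle arrays read 7.11, 7.19, 7.08 and 7.15 and its GSI arrays 7.25, 7.43, 7.28 and 7.32. All 4 GSI arrays were higher than all 4 vehicle arrays, as for 7.10% of all genes. The difference of 0.19 ± 0.071 did not pass the test (adjusted p = 0.218), and of 17 other settings 1 took it past the threshold, array weights (0.20, adjusted p = 0.0367). In A549 at 6 h SYP differed by -0.048 ± 0.071, and in H460a by 0.079 ± 0.071 at 6 h and 0.032 ± 0.071 at 24 h, with overlapping arrays each time.

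UCHL1 was the only gene of the panel called higher in the 4 GSI comparisons. In A549 at 6 h its vehicle arrays read 13.46, 13.56, 13.45 and 13.54 and its GSI arrays 13.50, 13.73, 13.81 and 13.90. GSI replicate 1 lay within the vehicle range, and the other 3 lay above it. The difference was 0.23 ± 0.060, or 1.17-fold (adjusted p = 0.0129). Among the GSI arrays, replicate 1, with a mean intensity of 496, read lowest, and replicates 3 and 4, with 589 and 583, read highest. The part of overall array signal in this call was not tested. After quantile normalization over all 32 arrays the difference was -0.068 (adjusted p = 0.457), and within each line it was -0.071 (adjusted p = 0.434).

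The UCHL1 call at 6 h also ended in other settings. Without the 3 arrays that stand apart it was 0.11 (adjusted p = 0.623), and with the 8 arrays of the comparison alone it was 0.23 (adjusted p = 0.12). It was 0.21 without vehicle replicate 3 (adjusted p = 0.0628), 0.21 without GSI replicate 3 (adjusted p = 0.0849) and 0.18 without GSI replicate 4 (adjusted p = 0.0924). The second UCHL1 probe set, at 6.81 to 7.41 in these 8 arrays, gave 0.027 ± 0.12 (adjusted p = 0.930). At 24 h in A549 the first probe set read 13.75, 13.75, 13.73 and 13.73 with vehicle and 13.77, 13.85, 13.81 and 13.86 with GSI. These arrays did not overlap, with GSI higher, as for 7.10% of all genes, and mean intensities were similar in both groups. The difference of 0.080 ± 0.060 did not pass (adjusted p = 0.686). In H460a the differences were -0.0014 ± 0.060 at 6 h and -0.040 ± 0.060 at 24 h.

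**Figure D3:**
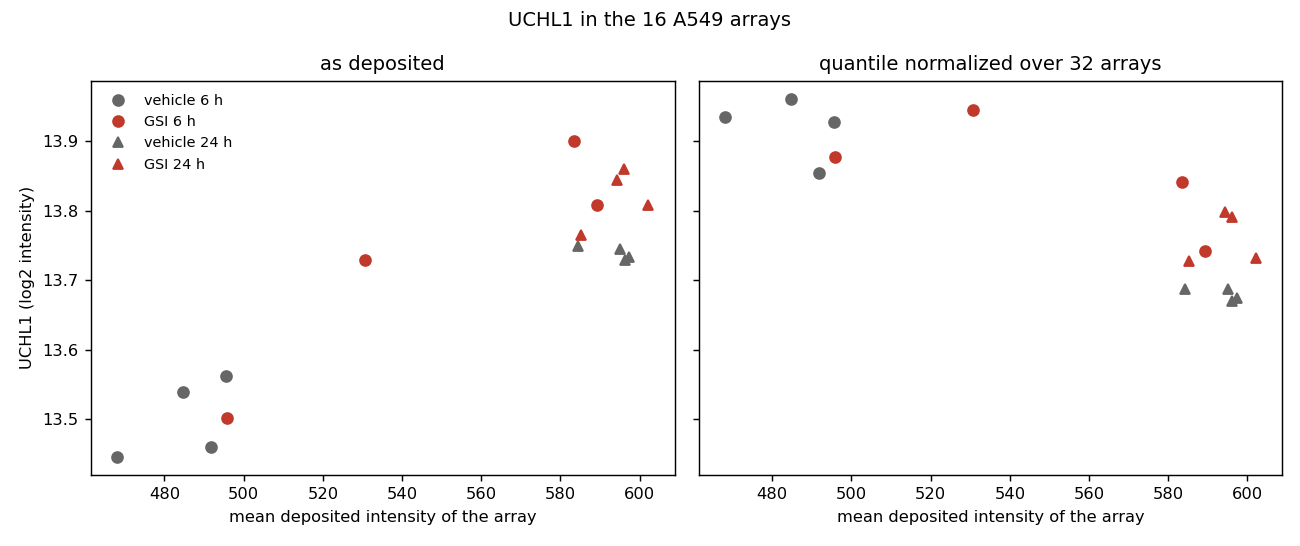
UCHL1 log2 intensity in the 16 A549 arrays against the mean deposited intensity of each array, as deposited and after quantile normalization over all 32 arrays. As deposited, the 6 h arrays lie at 13.45 to 13.90, with the highest at array intensities of 583 and 589. After quantile normalization the vehicle arrays at 6 h lie at 13.85 to 13.96 and the GSI arrays at 13.74 to 13.94. The arrays at 24 h then lie at 13.67 to 13.80.

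Averaged over both lines and times, 1 of the 8 genes was called, NPTX1, at -0.36 ± 0.048 (adjusted p = 1.24e-05), where 2.18% of all genes were called and 0.399% were called lower. At an unadjusted p under 0.05 there were 3, against 17.1% of all genes. SCG5 was at -0.17 ± 0.051 (adjusted p = 0.0768) and UCHL1 at 0.068 ± 0.030 (adjusted p = 0.237). The 95% interval of the averaged effect was -0.20 to 0.097 for CHGA, -0.13 to 0.15 for CHGB, -0.00033 to 0.25 for SCG2, -0.11 to 0.047 for INSM1 and -0.0089 to 0.14 for SYP.

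Whether the response differed between lines was tested directly as the GSI effect in A549 minus that in H460a. At 24 h NPTX1 fell further in A549, by 0.56 ± 0.14 (adjusted p = 0.0450), the 1 call among the 8 genes, where 0.637% of all genes were called and 0.273% were called lower. This call is fragile: the adjusted p was 0.0886 with each array centred on its median, and 2 of the 16 fits that leave out 1 array kept the call, those without H460a vehicle replicate 2 and without H460a GSI replicate 3. Over the 16 fits the difference ranged from -0.61 to -0.49. In H460a at 24 h the NPTX1 arrays lay under the yardstick of 7.27 with GSI (6.73 to 7.09) and around it with vehicle (7.15 to 7.41). The fall in H460a may thus be understated, and the part of this in the difference between lines was not tested. For SCG5 the difference between lines was -0.45 ± 0.14 (adjusted p = 0.226), so a fall particular to A549 was not shown. At 6 h 0 of 8 genes were called, where 0.121% of all genes were; at an unadjusted p under 0.05 there was 1, against 14.9% of all genes.

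More panel genes were called between culture times than between GSI and vehicle, as was also the case over all genes. The A549 vehicle arrays at 6 h had mean intensities of 468 to 496, below those at 24 h. The part this played was not tested. In vehicle-treated A549, 4 of 8 genes were called higher at 24 h than at 6 h and 0 lower, where 29.2% of all genes were called higher and 15.0% lower. CHGB read 9.33, 9.42, 9.14 and 9.27 at 6 h and 10.93, 10.90, 11.05 and 10.98 at 24 h. It rose by 1.67 ± 0.14, or 3.19-fold (adjusted p = 1.05e-10), with no overlap, as for 29.8% of all genes. SCG2 rose by 0.46 ± 0.12 (adjusted p = 0.0027) and SCG5 by 0.33 ± 0.10 (adjusted p = 0.00938). UCHL1 was called higher by 0.24 ± 0.060 (adjusted p = 0.0018) as deposited, but was at -0.24 (adjusted p = 0.000249) after quantile normalization over all arrays, so its direction is not settled.

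In vehicle-treated H460a, 3 of 8 genes were called lower at 24 h and 0 higher, where 15.3% of all genes were called lower and 15.1% higher. NPTX1 went from 8.12, 8.11, 8.50 and 8.13 at 6 h to 7.15, 7.41, 7.38 and 7.23 at 24 h. It fell by 0.92 ± 0.096, or 1.90-fold (adjusted p = 2.14e-09), by 0.83 without the 6 h replicate 3 at 8.50, and every array at 24 h lay below every array at 6 h, as for 14.5% of all genes. The NPTX1 arrays at 24 h lay around the yardstick of 7.27, so its fold may be understated. UCHL1 fell by 0.22 ± 0.060 (adjusted p = 0.00479), at -0.28 after quantile normalization. SCG2 was called lower by 0.36 ± 0.12 (adjusted p = 0.0215), with overlapping arrays. That call ended without the 6 h replicate 3 that has the high beta-actin ratio (-0.22, adjusted p = 0.164), without the 24 h replicates 3 (-0.31, adjusted p = 0.0767) or 4 (-0.31, adjusted p = 0.0755), and with array weights (-0.20, adjusted p = 0.116).

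The change with culture time itself differed between the lines for 5 of the 8 genes, all higher in A549 minus H460a, where 24.4% of all genes were called higher. The differences were 1.55 ± 0.20 for CHGB, 1.04 ± 0.14 for NPTX1, 0.82 ± 0.17 for SCG2, 0.49 ± 0.14 for SCG5 and 0.46 ± 0.085 for UCHL1. After quantile normalization UCHL1 was at 0.045 (adjusted p = 0.660), and the other 4 passed. Under GSI, NPTX1 fell from 6 to 24 h in A549 as well, by 0.87 ± 0.096, whereas under vehicle it was at 0.11 ± 0.096 (adjusted p = 0.357). These time comparisons share arrays with the comparisons of GSI and vehicle, so their values are not separate evidence. CHGB rose under GSI in A549 by 1.79 ± 0.14 and SCG2 by 0.35 ± 0.12, the 2 of 8 called higher (14.5% of all genes), and NPTX1 was the 1 called lower (4.22%). In H460a under GSI 4 of 8 were called lower (18.2% of all genes): NPTX1 by 1.18, SCG2 by 0.43, SCG5 by 0.32 and UCHL1 by 0.26.

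Between the vehicle-treated lines, averaged over both times, 3 of 8 genes were called higher in A549 and 3 lower, where 28.8% and 27.9% of all genes were. CHGB was higher in A549 by 4.96 ± 0.098, NPTX1 by 1.17 ± 0.068 and SCG5 by 0.37 ± 0.072. SCG2 was lower by 1.52 ± 0.086, CHGA by 0.77 ± 0.10 and UCHL1 by 0.45 ± 0.043. CHGB in H460a and SCG2 in A549 were above the yardstick in 0 of 16 arrays each, CHGA in A549 in 2 of 16 and SCG5 in 0 of 32, so these log2 differences are against a side near background and give no fold. The 8 vehicle arrays of one line did not overlap those of the other for these genes, except for SCG5, where they did; over all genes 12.5% separated with A549 higher and 13.4% with A549 lower. INSM1 (-0.037 ± 0.055) and SYP (0.073 ± 0.050) did not pass. Cell number and RNA per cell cannot be told apart in such bulk extracts.

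Genes around the panel were read from the same fit. Of 12 measured genes of granin and prohormone processing, such as the convertases, CPE and PAM, 0 passed in any of the 4 GSI comparisons (at an unadjusted p under 0.05: 3 in A549 at 6 h, 2 at 24 h, 2 in H460a at 6 h and 1 at 24 h). Among 29 genes of granule transport and exocytosis, 2 were called higher in A549 at 6 h and 0 lower: RAB27B, a granule-docking GTPase, at 0.38 ± 0.081, and RPH3AL, a Rab effector, at 0.28 ± 0.062, where 11.6% of all genes were called higher. At 24 h 3 were called higher and 0 lower: the vesicle-priming factors UNC13A at 0.42 ± 0.067 and UNC13B at 0.34 ± 0.065, and RPH3AL at 0.27 ± 0.062, where 1.32% of all genes were called higher. RPH3AL at 6 h did not pass after quantile normalization over all arrays (0.14, adjusted p = 0.152), where RAB27B was at 0.20 (adjusted p = 0.0476). Without GSI replicate 3 neither passed at 6 h: RAB27B was at 0.32 (adjusted p = 0.0519) and RPH3AL at 0.25 (adjusted p = 0.0542), and RPH3AL also missed without GSI replicate 4 (0.24, adjusted p = 0.0527). At 24 h RPH3AL missed without vehicle replicate 3 (0.25, adjusted p = 0.0508) or GSI replicate 3 (0.24, adjusted p = 0.059), and with the replicate block (adjusted p = 0.0603). A second UNC13A probe set was at 0.11 at 24 h (adjusted p = 0.786). In H460a 0 of the 29 passed at either time (1 at an unadjusted p under 0.05 each time).

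Few transcription factors and markers passed, and their counts are to be read beside the shares over all genes. In A549 these were 11.6% higher and 1.51% lower at 6 h, and 1.32% higher and 0.885% lower at 24 h. In H460a 0.0961% of all genes were called at 6 h and 0.00506% at 24 h. Of 28 measured neuroendocrine transcription factors, 1 was called higher and 1 lower in A549 at 6 h (TCF12 at 0.28 and NHLH2 at -0.38), neither of which passed after quantile normalization. At 24 h SOX4, an HMG-box factor, was the 1 called lower, at -0.38 ± 0.093 (adjusted p = 0.0165), and 0 were higher. It did not pass with the replicate block (adjusted p = 0.0516), and 3 of its 6 probe sets tested on their own did not pass, at -0.34, -0.084 and -0.0053. Among 35 other neuroendocrine and neuronal markers, 0 passed in A549 at 6 h (3 unadjusted), and at 24 h DDC, the enzyme that makes dopamine and serotonin, was at 0.68 ± 0.12 (adjusted p = 0.000553) and DPYSL3, a neurite outgrowth protein, at -0.30 ± 0.059. A second DDC probe set was at -0.068, and for DDC the effect was larger in A549 than in H460a by 0.91 ± 0.17 (adjusted p = 0.00406). DLL3, a Notch ligand of neuroendocrine tumours, did not pass in any of the 4 comparisons, with differences from -0.024 to 0.23. In H460a 0 of the 28 factors passed (2 unadjusted at each time) and 0 of the 35 markers (4 at 6 h and 1 at 24 h unadjusted).

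Some genes of the Notch pathway were called lower in A549. The list of Notch repressors, receptors and ligands had 26 measured genes, and it also held ID2 and ID3, which are none of these. Of the 26, 5 were called lower and 1 higher (ID2) at 6 h, and 6 lower and 0 higher at 24 h. Over all genes 1.51% were called lower and 11.6% higher at 6 h, and 0.885% and 1.32% at 24 h. At 24 h HES1, the repressor that acts on proneural genes, was at -2.18 ± 0.13, HEY1 at -0.62 ± 0.078, ID2 at -0.60 ± 0.085, HES4 at -0.50 ± 0.10, ID3 at -0.49 ± 0.066 and JAG2 at -0.33 ± 0.060. One HES1 probe set of 3 was at 0.10 and did not pass. HEYL (0.10 ± 0.11) and NRARP (0.19 ± 0.067, adjusted p = 0.172) did not pass at 24 h. ID2, an inhibitor of helix-loop-helix factors, was at 0.62 ± 0.085 at 6 h, the opposite sign. In H460a 0 of the 26 passed at either time (6 and 5 at an unadjusted p under 0.05), with HES1 at -0.35 ± 0.13 at 6 h and -0.29 ± 0.13 at 24 h. With vehicle, HES1 was higher in A549 than in H460a by 3.24 ± 0.090, and by 3.32 after quantile normalization over all arrays. The lowest value among other settings, which include each HES1 probe set on its own, was 0.20. These genes do not show that Notch was blocked in H460a, so the panel's result there concerns exposure to GSI.

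REST, the zinc finger repressor that silences CHGA, SYP and other granule genes outside neuroendocrine cells, did not pass in any of the 4 comparisons. Its level in A549 was 8.17 with vehicle and 8.42 with GSI at 6 h and 8.86 and 8.70 at 24 h, and in H460a 8.13 and 8.31 at 6 h and 8.51 and 8.48 at 24 h. The differences were 0.24 ± 0.11 (adjusted p = 0.145), -0.16, 0.18 and -0.031. Of 16 measured genes of REST and its corepressors, 2 were called higher in A549 at 6 h: HDAC1 at 0.24 ± 0.070, which was at 0.056 (adjusted p = 0.578) after quantile normalization, and RCOR1 at 0.24 ± 0.072, whose arrays overlapped and which is named after its value was seen. Over all genes 11.6% were called higher and 1.51% lower in A549 at 6 h. In the other 3 comparisons 0 of the 16 passed (1, 3 and 0 at an unadjusted p under 0.05 in A549 at 24 h and H460a at 6 and 24 h). Of 11 relatives of the panel, such as NPTX2, UCHL3 and the synaptogyrins, 1 was called higher in A549 at 6 h, UCHL3 at 0.21 ± 0.063, also named after its value was seen, and 1 lower, SYPL2 at -0.38 ± 0.12. The same shares over all genes apply to these relatives at 6 h. In the other 3 comparisons 0 of the 11 passed (2, 1 and 0 unadjusted).

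**Figure D4:**
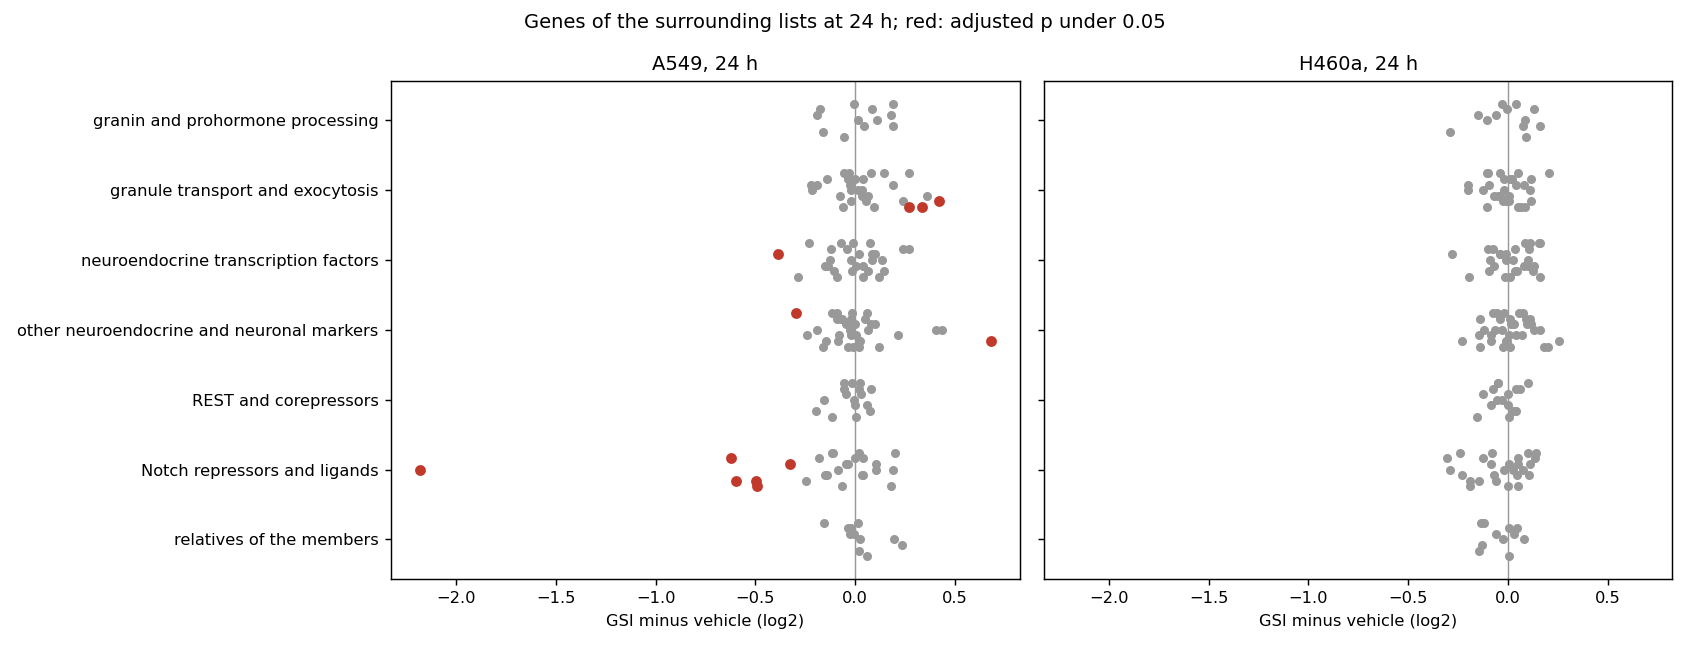
Difference in log2 intensity, GSI minus vehicle at 24 h, of each measured gene in the 7 surrounding lists, for A549 and H460a; red points passed the test and grey points did not, and the vertical offset within a list only separates points. In A549 the lowest point is HES1 at -2.18 and the highest DDC at 0.68, and in H460a 0 points passed.

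The genes whose pattern lay closest to each panel gene were found by Pearson's r over the 32 arrays after subtracting each line's mean, as a description with no test. The 32 arrays share 8 groups and their scaling, so a high r partly reflects the groups. For CHGB these were MFSD6 (r = 0.94), MAP2 (0.93) and XBP1 (0.93), and for NPTX1 SPDL1 (0.91), CCNE1 (0.90) and DNMT1 (0.89). For SCG2 they were FAM135A (0.88), USP38 (0.87) and GOPC (0.87), and for UCHL1 CCT4 (0.96), PHB2 (0.96) and PCBP1 (0.94). CHGA and SYP had no gene as near: the closest were GSTCD-AS1 (0.74) and DMWD (0.72). INSM1 and SCG5, below the yardstick throughout, were not searched.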

How the data were processed

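RNA of 32 samples was labelled with biotin and hybridised to an Affymetrix array, per the labels' protocols. The deposited table gives 54675 probe sets per array as intensity on a linear scale, judged from its range. The submitters' processing notes name RMA, with no version. Intensities were log2-transformed here and not rescaled, so the main fit keeps the spread of array mean intensities, from 468 to 613. Left out were 62 control probe sets, 1801 with several symbols and 11721 with none. The probe set with the highest mean stood for each gene.

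A model with a mean for each of 8 groups was fitted to all 32 arrays with limma 3.58.1 (lmFit, eBayes) in R 4.3.3. Adjustment for multiple testing (Benjamini-Hochberg, threshold 0.05) ran over 19775 genes within each comparison. The procedure was tested on simulated data. The members, lists and alternatives were chosen with earlier results of these data known. The comparisons of culture time under GSI, and of culture time between lines, were added later. Always named were the panel, HES1, HES4, HEY1, HEYL, NRARP, REST and DLL3; from each list, up to 6 called genes whose arrays do not overlap were eligible. Pairing by replicate number was checked, and the correlations did not settle it. Figures used matplotlib 3.10.9 and pandas 2.3.3 in Python 3.11.15.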

Additional observations from a re-analysis of the deposited data

Results flagged for a closer look

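In 3 of the 64 groups of 4 arrays (8 genes in 8 groups), a single array lay apart by Dixon's test at the 95% level, about the 1 in 20 that chance gives. CHGB in H460a with GSI at 24 h was 4.59 in replicate 3, against 5.24 to 5.34 in the other 3 arrays. SCG2 in H460a with GSI at 6 h was 8.42 in replicate 1, against 8.27 to 8.29. NPTX1 in H460a with vehicle at 6 h was 8.50 in replicate 3, against 8.11 to 8.13. That array also had the beta-actin ratio of 2.19, and without it the GSI difference of NPTX1 in H460a at 6 h was -0.046 (-0.14 with it) and the change over time with vehicle was -0.83 (-0.92 with it).

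The GSI effect on NPTX1 at 24 h differed between the lines, by -0.56 on the log2 scale in A549 minus H460a (limma, adjusted p = 0.0450), with GSI below vehicle in every array of both lines. The call was kept in 10 of 26 other fits, among them 2 of the 16 that leave out 1 array, and the adjusted p was 0.118 with the replicate block. The H460a arrays of this comparison lay around or under the background yardstick, so the fall there may be understated.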

How the results depend on the processing

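Of the panel, NPTX1 in A549 at 24 h, NPTX1 and UCHL1 in H460a over time and the CHGB, SCG2 and SCG5 rises in A549 over time kept their direction and call in every fit in which they were tested, as did SCG5 in A549 at 24 h. In A549 at 6 h the count of called genes went from 1 to 0 with either quantile normalization, the mean of a gene's probe sets, the arrays of the comparison alone or without the 3 arrays that stand apart, and was 0 to 1 when leaving out 1 array. With only genes above the median level, fewer genes are tested and the count was 1 in A549 at 24 h, 2 for time in A549 and 3 between lines. Averaged over lines and times it was 3 with array weights, which added SCG2 (0.16) and SCG5 (-0.17), and 1 to 2 when leaving out 1 array. For the difference between lines it was 0 at 24 h with median centring, with each probe set on its own and with the replicate block (NPTX1 at -0.56, adjusted p = 0.118), 0 to 1 without 1 array at 24 h, and 0 to 1 at 6 h. The cause was not tested. The replicate block changed no other call of the panel in the GSI comparisons; it could not be fitted for line or time, which lie between blocks. Same-numbered arrays correlated at -0.35 to 0.32 and other pairs at -0.35 to 0.34, which does not settle whether the numbers pair samples.

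Reversed values were these. UCHL1 was at -0.068 and -0.071 in A549 at 6 h with quantile normalization over all arrays and within each line, and over time in A549 at -0.24 and -0.25, with -0.13 for its second probe set. Other probe sets of named genes had the opposite sign: RPH3AL at -0.081 and -0.00064 in A549 at 6 h, -0.11 at 24 h and -0.0086 on average, TCF12 at -0.13, DLL1 at 0.13, HES1 at 0.10 in A549 at 24 h and 0.18 for the difference between lines, DDC at -0.068 and -0.27 in the same, UNC13A at -0.0077 on average, and between lines SIN3A at -0.20 and JAG1 at -0.022.

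Over all genes, the count called in A549 at 6 h was 2600, but 557 and 442 with the quantile normalizations, 22 without the 3 arrays, 29 with its own arrays and 167 to 3834 without 1 array. In A549 at 24 h it was 437, and 1169 with array weights and 664 without the 3 arrays. In H460a it was 19 at 6 h (2 to 110) and 1 at 24 h (0 to 10). Averaged it was 432 (297 to 1884), and for the difference between lines 24 at 6 h (9 to 844) and 126 at 24 h (72 to 283). Signal near background limits INSM1, SCG5 and SYP in both lines, CHGB in H460a, and SCG2 and CHGA in A549. It also limits NPTX1 in H460a at 24 h. Changes of these genes there may go unseen or be understated.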
